A study of Mus musculus with 22 samples.

Results

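Atf3, Sprr1a, Gap43, Sox11, Csf1, Adcyap1, Ecel1, Gadd45a, Flrt3 and Socs3 are genes whose transcripts are known to rise in mouse neurons after their peripheral axons are cut or crushed. Their levels were followed in spinal cord of mice that carry an E196K change in Yars, the gene for tyrosyl-tRNA synthetase. The 10 genes were taken by symbol from 38924 gene IDs, and all 10 had an ID in every library. All are protein-coding. In GENCODE M21 on GRCm38, matched by gene ID, Atf3 lies at chr1:191170296-191218039, Ecel1 at chr1:87147655-87156521, Flrt3 at chr2:140650914-140671469, Csf1 at chr3:107741048-107760469 and Sprr1a at chr3:92483952-92485895. Gadd45a lies at chr6:67035096-67037457, Socs3 at chr11:117966079-117970047, Sox11 at chr12:27334264-27342574, Gap43 at chr16:42248442-42340651 and Adcyap1 at chr17:93199017-93206537. The build behind the deposited files is not stated. Of the 10, 9 passed the filter on low counts that left 16974 genes for testing. Sprr1a had too few counts and was examined separately. None of the 9 passed the test between genotypes after adjustment over all genes.

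RNA sequencing of whole spinal cord gave 22 libraries from mice aged 7 months, all on a mixed B6N;B6J background. The HOM group (E196K/E196K) had 10 libraries, the HET group (E196K/+) had 6 and the WT group (no E196K allele) had 6. The labels name no transgene, injury or treatment for any group. Whether every library stands for its own mouse is not stated, so the p-values speak only of the spread between libraries, which may be technical.

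An axon cut in the periphery sends signals back to the cell body, which then switches on a transcription program for survival and regrowth. Atf3 is a stress-induced transcription factor of the ATF/CREB family and Sox11 a developmental transcription factor that is re-expressed in injured sensory neurons. Gap43 and Sprr1a encode proteins found in growing axons. Csf1 encodes a cytokine by which injured neurons act on microglia, and Adcyap1 encodes the neuropeptide PACAP. Dominant YARS changes cause a form of Charcot-Marie-Tooth neuropathy in people, a disease of peripheral motor and sensory axons. The motor neurons of those axons have their cell bodies in spinal cord, whereas the sensory cell bodies sit outside it in dorsal root ganglia. In whole cord, fewer cells of a type and less RNA per cell cannot be told apart.

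Of the 10 genes, 9 had a promoter entry in RefSeq, and the 250 bases before each start were searched on both strands. The motifs were the ATF4 composite element TGATGNAAN, the cAMP response element TGACGTCA, the AP-1 site TGANTCA and the STAT site TTCNNNGAA, and no match found overlapped a match of another motif. They stand for the stress, calcium, JUN and cytokine pathways through which injury signals are known to act. The 3 promoters with a match are shown over 160 bases each, from 250 to 91 bases before the RefSeq start on the minus strand of GRCm38.p6, with the matches in capitals.
Atf3: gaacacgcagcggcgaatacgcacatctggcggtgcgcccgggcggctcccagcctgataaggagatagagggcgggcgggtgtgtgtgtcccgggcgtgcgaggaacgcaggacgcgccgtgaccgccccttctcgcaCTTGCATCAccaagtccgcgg
Sprr1a: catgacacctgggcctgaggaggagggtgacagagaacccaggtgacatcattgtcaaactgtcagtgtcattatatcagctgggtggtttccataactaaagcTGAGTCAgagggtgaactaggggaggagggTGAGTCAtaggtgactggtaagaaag
Socs3: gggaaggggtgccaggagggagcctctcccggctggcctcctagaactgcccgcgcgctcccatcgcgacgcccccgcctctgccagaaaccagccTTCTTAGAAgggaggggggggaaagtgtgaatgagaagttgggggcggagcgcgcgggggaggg
The Atf3 stretch, chr1:191183424-191183583, holds the ATF4 element on the opposite strand, 111 bases before the start. The Sprr1a stretch, chr3:92485972-92486131, holds the AP-1 site at 146 and at 116 bases before the start. The Socs3 stretch, chr11:117969457-117969616, holds the STAT site 154 bases before the start. Bases shortly after the RefSeq start were found in a GENCODE M21 transcript of the same gene for Atf3, but not for Sprr1a and Socs3. The distances for Sprr1a and Socs3 therefore rest on the RefSeq start alone. The Atf3 and Socs3 stretches lie between exons of longer transcripts of the same genes in GENCODE M21, and no stretch overlaps an annotated exon. Among all 32851 promoters of this length, 3.44% hold the ATF4 element, 6.75% the AP-1 site, 7.02% the STAT site and 1.55% the cAMP response element. The ATF4 element, the AP-1 site and the STAT site were each found in 1 of the 9 promoters of the injury genes and the cAMP response element in 0. A match in the letters is not evidence that a factor binds there.

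Libraries held 24.45 M to 42.81 M counts. Levels below are CPM, counts scaled by the TMM-adjusted library total, unless TPM is named. Markers of neurons summed to at least 7466 CPM in every library, those of oligodendrocytes to at least 15956 CPM, those of astrocytes to at least 5656 CPM and those of microglia to at least 353 CPM. The motor neuron gene Chat had at least 13.3 CPM. Of 15 markers of sensory neurons of the dorsal root ganglia found in the files, 7 stayed under 0.5 CPM in every library, among them Scn10a, Trpv1 and Mrgprd. Others of the list were present: Prph ran from 32.7 to 56.6 CPM over the 22 libraries, Calca from 12.4 to 22.9 CPM, Pou4f1 from 4.90 to 7.93 CPM and P2rx3 from 1.03 to 2.10 CPM. Prph and Calca are also made by motor neurons. The library HOM 3 stood apart. In HOM 3, 13 of 14 Schwann cell markers and 10 of 10 markers of blood myeloid cells had their highest value of the 22 libraries. The myeloid markers summed to 471 CPM in HOM 3, against 8.97 to 27.1 CPM in the other 9 HOM libraries, 7.65 to 15.7 CPM in HET and 9.19 to 11.2 CPM in WT. Fibroblast markers summed to 588 CPM in HOM 3, against 119 to 131 CPM in the other 9 HOM libraries. Oligodendrocyte markers were lowest of the 22 libraries in HOM 3 for 8 of 8 genes and neuron markers for 8 of 10. Results that rest on HOM 3 are therefore given with and without it. The sample titles begin with 39992 (5 HOM and 1 WT), 40411 (3 HOM, 1 HET and 2 WT) or 40412 (2 HOM, 5 HET and 3 WT). The labels do not explain these prefixes, and the genotypes are unevenly spread over them.

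Per length, in TPM, the 10 genes covered a wide range in WT cord. Gap43 was the highest with 125 ± 6.96 TPM (SD, n = 6), followed by Ecel1 with 26.7 ± 2.55 TPM, Csf1 with 26.2 ± 2.43 TPM, Adcyap1 with 22.3 ± 2.39 TPM and Gadd45a with 18.9 ± 1.14 TPM. Flrt3 had 8.82 ± 0.823 TPM, Sox11 2.38 ± 0.348 TPM, Atf3 1.51 ± 0.27 TPM, Socs3 1.27 ± 0.28 TPM and Sprr1a 0.767 ± 0.384 TPM. The WT ranges of neighbours in this order did not overlap between Gap43 and Ecel1, between Gadd45a and Flrt3 and between Flrt3 and Sox11, and they overlapped for the other 6 neighbouring pairs. The genes best known as markers of injured neurons, Atf3 and Sprr1a, were among the lowest in WT cord, with 26 to 61 and 1 to 15 counts per library over all 22 libraries. Low counts limit what can be seen for Atf3, Socs3, Sox11 and Sprr1a, whereas Gap43 rested on 2192 to 3602 counts per library.

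**Figure D1:**
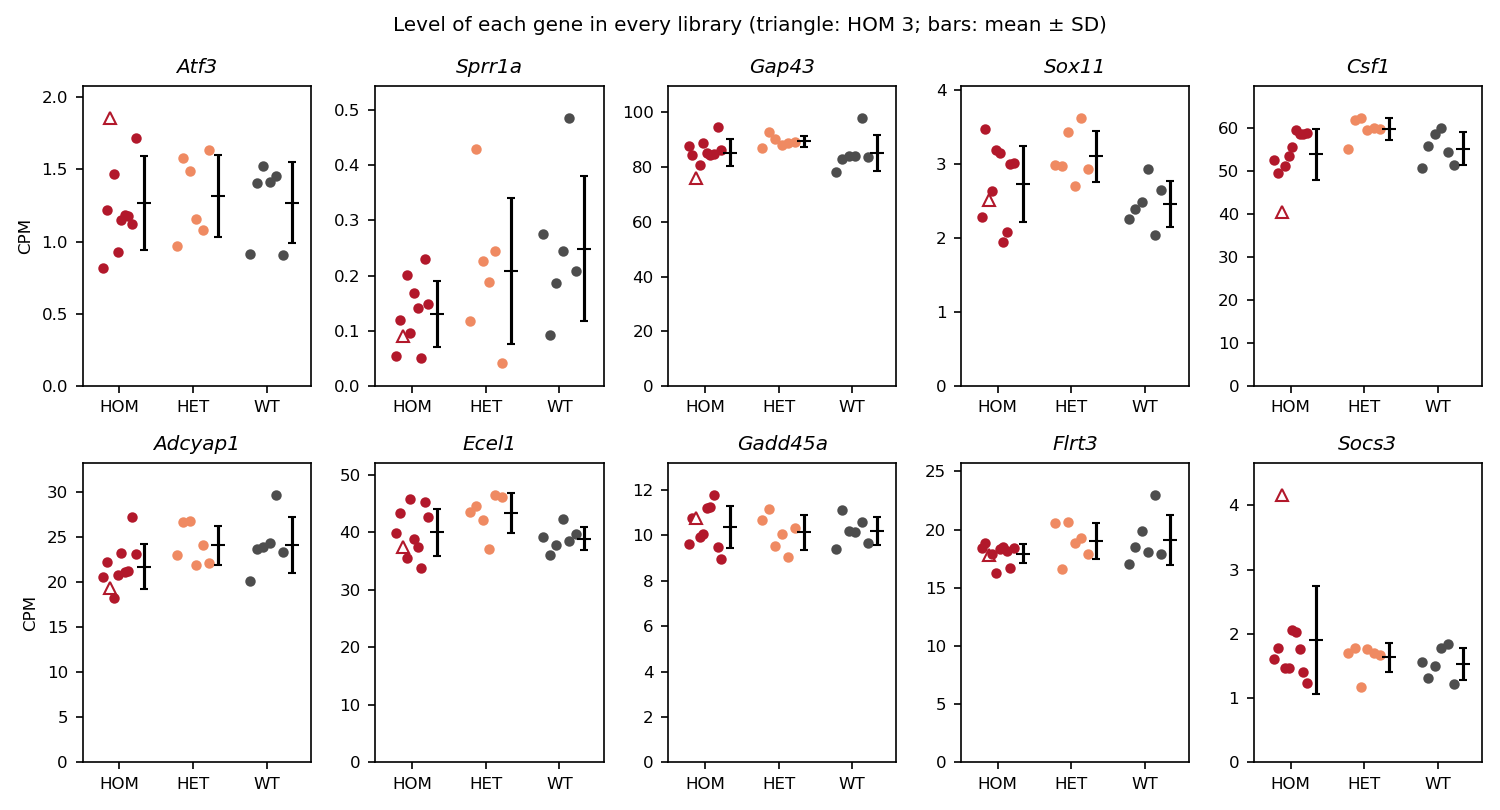
CPM (vertical axes, from 0) of each of the 10 genes in every library by genotype, with bars for mean ± SD and an open triangle for HOM 3. The ranges of the 3 genotypes overlap for every gene; HOM 3 is the highest library for Atf3 at 1.85 CPM and for Socs3 at 4.16 CPM, and the lowest for Csf1 at 40.5 CPM and for Gap43 at 76.1 CPM.

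HOM cords were set against WT cords to ask which transcripts differ with the homozygous genotype. By edgeR's quasi-likelihood test, 0 of 9 genes passed an adjusted p below 0.05 and 0 of 9 had an unadjusted p below 0.05, and DESeq2 and limma also called 0. Over all genes 0.0943% were called. Of the 9, 5 had a positive and 4 a negative log2 fold change, with a median of 0.00 and a range of -0.15 to 0.31. The median over all tested genes was 0.01, 53.7% of them had a positive value and 5.91% an unadjusted p below 0.05. The smallest adjusted p of the 9 was 0.815. Without HOM 3 the median of the 9 was 0.02, and with prefix as covariate 0.04, with 0 called in both. HET cords against WT cords gave 0 called of 9 and 2 genes with an unadjusted p below 0.05, Sox11 and Ecel1, with 6 positive and 3 negative values and a median of 0.07. With prefix as covariate this median was 0.04 and 1 gene, Sox11, had an unadjusted p below 0.05. Without HOM 3 in the fit 3 genes had one, Sox11, Ecel1 and Csf1, with 0 called. In that comparison 0% of all genes were called, the median over all genes was 0.00 and 3.41% of all genes had an unadjusted p below 0.05. HOM cords against HET cords also gave 0 called of 9, with 2 positive and 7 negative values, a median of -0.08 and 1 unadjusted p below 0.05, that of Csf1. Without HOM 3 this median was -0.11, and with prefix as covariate 0.00. There 0.106% of all genes were called and 8.80% had an unadjusted p below 0.05. The number of E196K alleles, fitted as 0, 1 or 2, gave 0 called of 9, against 0.10% of all genes. The smallest unadjusted p in that fit was that of Adcyap1, 0.0403, with a log2 change of -0.08 per allele (SE 0.038, adjusted p = 0.716, edgeR). It was -0.03 with prefix as covariate (unadjusted p = 0.334) and -0.07 without HOM 3 (unadjusted p = 0.0695). HOM against WT and HET against WT share the WT libraries, and HOM against HET shares libraries with each of them.

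**Figure D2:**
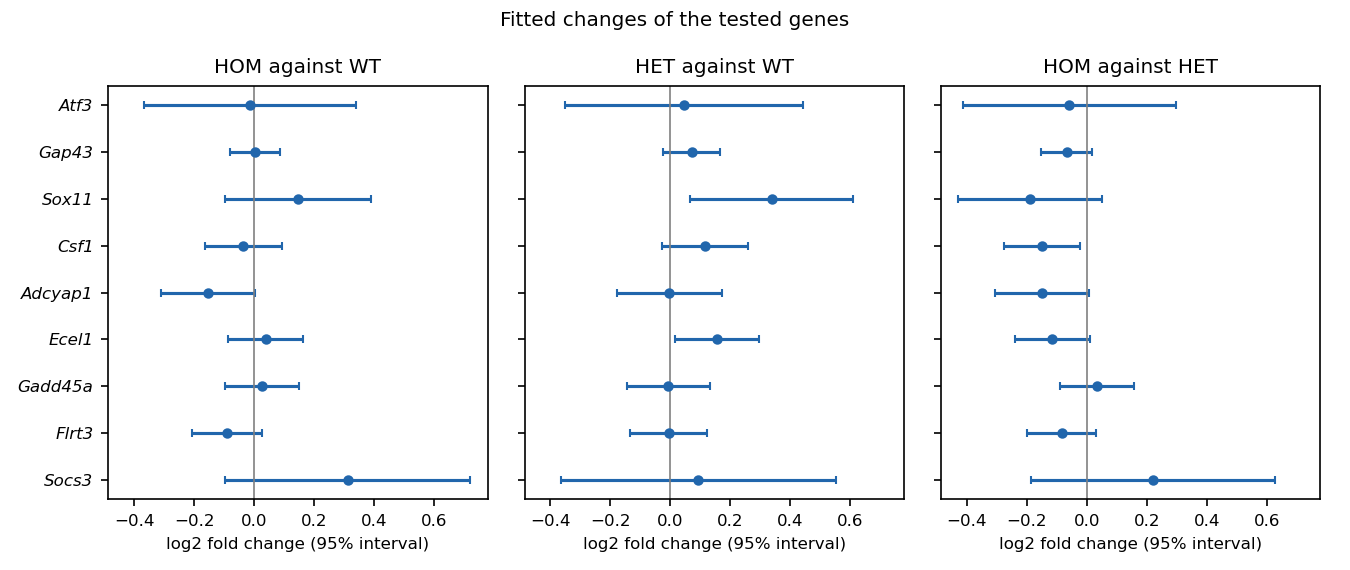
Log2 fold changes (horizontal axes) of the 9 tested genes with 95% intervals from edgeR, for HOM against WT, HET against WT and HOM against HET. Gap43 has the narrowest interval in HOM against WT, -0.08 to 0.09, and Socs3 the widest, -0.10 to 0.72.

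Atf3, the stress-induced transcription factor, had in HOM cords a lowest, median and highest level of 0.819, 1.18 and 1.85 CPM, in HET cords 0.968, 1.32 and 1.63 CPM and in WT cords 0.905, 1.41 and 1.53 CPM. The 3 ranges overlapped, and the highest of the 22 values was that of HOM 3. The mean was 1.26 ± 0.326 CPM in HOM (SD, n = 10), 1.32 ± 0.283 CPM in HET (n = 6) and 1.27 ± 0.281 CPM in WT (n = 6). HOM against WT gave a log2 fold change of -0.01 (SE 0.172, 95% interval -0.37 to 0.34, adjusted p = 0.991), which covers changes from 22.5% lower to 26.6% higher. Without HOM 3 it was -0.10 (unadjusted p = 0.547). In HET against WT it was 0.04 (SE 0.192, interval -0.35 to 0.44). Atf3 has 2 transcripts in the authors' files, and the length that RSEM gave the gene ran from 1019 to 1984 bases over the libraries. The spread of its level over the 22 libraries was 22.6% of the mean in CPM and 33.0% in TPM.

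Sox11, which acts in neuronal development and in axon regrowth, had 1.95, 2.82 and 3.48 CPM as lowest, median and highest value in HOM cords, 2.71, 2.98 and 3.63 CPM in HET cords and 2.04, 2.44 and 2.94 CPM in WT cords. The HET libraries sat in the upper part of the range and overlapped WT only between 2.71 and 2.94 CPM. HET against WT gave a log2 fold change of 0.34 (SE 0.131, interval 0.07 to 0.61), with an unadjusted p of 0.0167 and an adjusted p of 1.0 in edgeR, so it did not pass. With prefix as covariate it was 0.30 (unadjusted p = 0.0376), and the HET mean exceeded the WT mean within both prefixes that hold both groups. HOM against WT gave 0.15 (SE 0.118, interval -0.10 to 0.39, adjusted p = 0.821), and the value for HOM against HET was -0.19 (SE 0.116, adjusted p = 0.657).

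Gap43, a membrane protein of growth cones that adult motor neurons make again after injury, had 76.1, 85.0 and 94.5 CPM as lowest, median and highest value in HOM cords, 87.0, 89.1 and 92.9 CPM in HET cords and 78.4, 83.8 and 97.9 CPM in WT cords. HOM 3 held the lowest and WT 5 the highest of the 22 values. Gap43 had the smallest standard errors of the 9, with means of 85.3 ± 4.83 CPM in HOM, 89.4 ± 2.06 CPM in HET and 85.1 ± 6.63 CPM in WT. HOM against WT gave a log2 fold change of 0.00 (SE 0.041, interval -0.08 to 0.09, adjusted p = 0.992). This interval leaves room for a change from 5.48% lower to 6.26% higher. In HET against WT it was 0.07 (SE 0.0458, interval -0.02 to 0.17) and in HOM against HET -0.07 (SE 0.0409, interval -0.15 to 0.02).

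Sprr1a, a small proline-rich protein better known from skin that promotes axon outgrowth when injured neurons induce it, had between 1 and 15 counts per library. Its summed counts were 42 in HOM, 41 in HET and 48 in WT. The lowest, median and highest levels were 0.0513, 0.130 and 0.231 CPM in HOM cords, 0.0408, 0.207 and 0.430 CPM in HET cords and 0.0920, 0.227 and 0.485 CPM in WT cords. The HOM values sat low and overlapped both other groups. Scaled by the summed library totals, the HOM to WT ratio was 0.532 (exact 95% binomial interval 0.343 to 0.823, counting error only), a lower level in HOM. An exact 2-sided permutation test of the mean CPM gave p = 0.0237, or 0.0712 after Benjamini-Hochberg adjustment over the 3 genotype comparisons. Without HOM 3 the exact permutation p was 0.036, and over all 16 single libraries left out it ran from 0.004 without WT 2 to 0.0566 without WT 1 and 0.0633 without WT 5. In edgeR without the filter on low counts the log2 fold change was -0.92 (unadjusted p = 0.025, adjusted p = 0.753), and DESeq2 gave -0.94 (adjusted p = 0.974), so it did not pass over all genes. The level moved with the title prefix, with means over all genotypes of 0.139, 0.126 and 0.245 CPM under 39992, 40411 and 40412, and the permutation did not take the prefix into account. The HOM mean was 0.112 CPM against 0.275 CPM in the single WT library under 39992, 0.121 against 0.139 CPM in WT under 40411, and 0.190 against 0.313 CPM in WT under 40412. The HET to WT ratio was 0.900 (interval 0.579 to 1.39, exact permutation p = 0.589). The HOM to HET ratio was 0.591 (interval 0.375 to 0.932, exact permutation p = 0.145). With single libraries left out, that permutation p ran from 0.032 without HET 6 and 0.0947 without HOM 9 to 0.386 without HET 2.

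Csf1, the cytokine that binds the microglial receptor encoded by Csf1r, had 40.5, 54.6 and 59.6 CPM as lowest, median and highest value in HOM cords, 55.3, 59.9 and 62.4 CPM in HET cords and 50.7, 55.3 and 60.1 CPM in WT cords. HOM 3 was the lowest of all 22 libraries, and the next lowest HOM library had 49.7 CPM. In HOM against HET the log2 fold change was -0.15 (SE 0.0615, interval -0.28 to -0.02), with an unadjusted p of 0.022 and an adjusted p of 0.476 in edgeR. Without HOM 3 it was -0.11 (unadjusted p = 0.0201), and a fit with prefix as covariate gave -0.04 (unadjusted p = 0.49). The level moved with the prefix within genotypes: HOM libraries averaged 49.5 CPM under 39992, 58.0 CPM under 40411 and 58.8 CPM under 40412. The mean under 39992 includes HOM 3, and the other HOM libraries there ran from 49.7 to 53.5 CPM. Under 40411 and 40412 every HOM library had at least 55.6 CPM. The WT libraries averaged 50.7 (1 library), 57.4 and 55.3 CPM under the same prefixes. The 39992 prefix holds no HET library. The value for HOM against WT was -0.04 (SE 0.0617, interval -0.16 to 0.09, adjusted p = 0.914). For HET against WT it was 0.12 (SE 0.069, interval -0.03 to 0.26, unadjusted p = 0.108, edgeR), a higher HET mean with ranges that overlapped. This value was 0.11 without HOM 3 in the fit (unadjusted p = 0.0276) and 0.07 with prefix as covariate (unadjusted p = 0.191). The receptor gene Csf1r averaged 93.4 ± 7.80 CPM in HOM, 96.1 ± 6.07 CPM in HET and 93.8 ± 5.50 CPM in WT, with a log2 fold change of -0.01 in HOM against WT (adjusted p = 0.984, edgeR).

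Adcyap1, the precursor of the neuropeptide PACAP, had 18.2, 21.2 and 27.2 CPM as lowest, median and highest value in HOM cords, 21.96, 23.6 and 26.8 CPM in HET cords and 20.1, 23.8 and 29.8 CPM in WT cords. The 3 ranges overlapped. HOM against WT gave a log2 fold change of -0.15 (SE 0.076, interval -0.31 to 0.00, unadjusted p = 0.054, adjusted p = 0.815), and HOM against HET likewise -0.15 (SE 0.0762, adjusted p = 0.588). The value for HET against WT was 0.00 (SE 0.0852). Here too the title prefix moved with the level, with HOM means of 20.3, 21.9 and 25.2 CPM and WT means of 20.1, 23.8 and 25.8 CPM under 39992, 40411 and 40412. A fit with prefix as covariate gave -0.06 for HOM against WT (unadjusted p = 0.36) and 0.01 for HOM against HET. Adcyap1r1, which encodes the PACAP receptor, averaged 300.8 ± 21.7 CPM in HOM, 305.4 ± 11.6 CPM in HET and 298.5 ± 11.2 CPM in WT.

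Ecel1, a membrane protease of neurons that is induced by nerve injury and needed for motor axons to branch in muscle, had 33.7, 39.4 and 45.8 CPM as lowest, median and highest value in HOM cords, 37.1, 44.1 and 46.6 CPM in HET cords and 36.1, 38.8 and 42.3 CPM in WT cords. Of the HET libraries, 4 lay above every WT library, and so did HOM 2, HOM 5, HOM 9 and HOM 10. HET against WT gave a log2 fold change of 0.15 (SE 0.0679, interval 0.01 to 0.29, unadjusted p = 0.0317, adjusted p = 1.0). With prefix as covariate it was 0.13 (unadjusted p = 0.0691). HOM against WT gave 0.04 (SE 0.0608, interval -0.09 to 0.16, adjusted p = 0.901).

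Flrt3, a cell adhesion and guidance receptor, had 16.2, 18.2 and 18.9 CPM as lowest, median and highest value in HOM cords, 16.6, 19.1 and 20.7 CPM in HET cords and 17.1, 18.3 and 23.0 CPM in WT cords. The highest value was that of WT 5. For HOM against WT the fit gave a log2 fold change of -0.09 (SE 0.0558, interval -0.21 to 0.02, adjusted p = 0.815), and HET against WT gave -0.01 (SE 0.0626). Flrt3 lies within Macrod2 on the opposite strand in GENCODE M21, and no source used here gives the strand setting of the counting. The same holds for Gadd45a, which overlaps E230016M11Rik on the opposite strand.

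Gadd45a, a growth arrest and DNA damage gene that injured sensory neurons also induce, had 8.95, 10.4 and 11.8 CPM as lowest, median and highest value in HOM cords, 9.06, 10.2 and 11.2 CPM in HET cords and 9.39, 10.2 and 11.1 CPM in WT cords. The 3 ranges nearly coincided. For HOM against WT the fit gave a log2 fold change of 0.03 (SE 0.0595, interval -0.10 to 0.15, adjusted p = 0.932), and HET against WT gave -0.01 (SE 0.0666, interval -0.14 to 0.13).

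Socs3, the feedback inhibitor of JAK and STAT signalling that restrains axon regrowth, had 1.23, 1.69 and 4.16 CPM as lowest, median and highest value in HOM cords, 1.17, 1.70 and 1.78 CPM in HET cords and 1.22, 1.52 and 1.84 CPM in WT cords. The value of 4.16 CPM was that of HOM 3, and the other 9 HOM libraries ran from 1.23 to 2.06 CPM. The mean in HOM was 1.90 ± 0.840 CPM (n = 10), or 1.65 ± 0.285 CPM without HOM 3 (n = 9), against 1.63 ± 0.232 CPM in HET and 1.53 ± 0.247 CPM in WT. The log2 fold change of 0.31 in HOM against WT (SE 0.198, interval -0.10 to 0.72, adjusted p = 0.815) was the largest of the 9 and came to 0.11 without HOM 3 (unadjusted p = 0.383). Stat3, which encodes the factor that Socs3 holds in check, had a log2 fold change of 0.01 in HOM against WT (SE 0.0249, adjusted p = 0.958, edgeR).

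Set beside the median of the other 9 HOM libraries, HOM 3 had 2.59 times the Socs3 level and 1.57 times the Atf3 level, and 0.728 times the Csf1 level and 0.894 times the Gap43 level. In CPM these were the highest value of the 22 libraries for Socs3 and Atf3 and the lowest for Csf1 and Gap43. In TPM HOM 3 was still the highest for Socs3 with 3.50 TPM and the lowest for Csf1 with 19.97 TPM. For Atf3 it had 2.11 TPM and HOM 4 was the highest with 3.00 TPM. For Gap43 it had 119 TPM and WT 1 was the lowest with 115 TPM. Sox11, Adcyap1, Ecel1, Gadd45a, Flrt3 and Sprr1a were within the range of the other HOM libraries. In HOM 3 the sensory neuron markers summed to 60.5 CPM, against 56.3 to 78.6 CPM in the other 9 HOM libraries, and Prph with 33.9 CPM and Calca with 13.2 CPM held most of that sum. Of the 15 sensory neuron markers, 4 had their highest value of the 22 libraries in HOM 3 and 1 its lowest. The 4 were Pou4f1 with 7.93 CPM, against at most 6.99 CPM in the other 21 libraries, Trpa1 with 0.699 against 0.652 CPM, Trpv1 with 0.304 against 0.259 CPM and Scn10a with 0.0912 against 0.0880 CPM. In HOM 3 a level of 0.0912 CPM stands for 3 counts, so the order of libraries for Scn10a, Trpv1 and Trpa1 rests on few counts. The part of the Schwann cell, myeloid, fibroblast and sensory neuron transcripts in the Socs3 and Atf3 values was not tested.

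**Figure D3:**
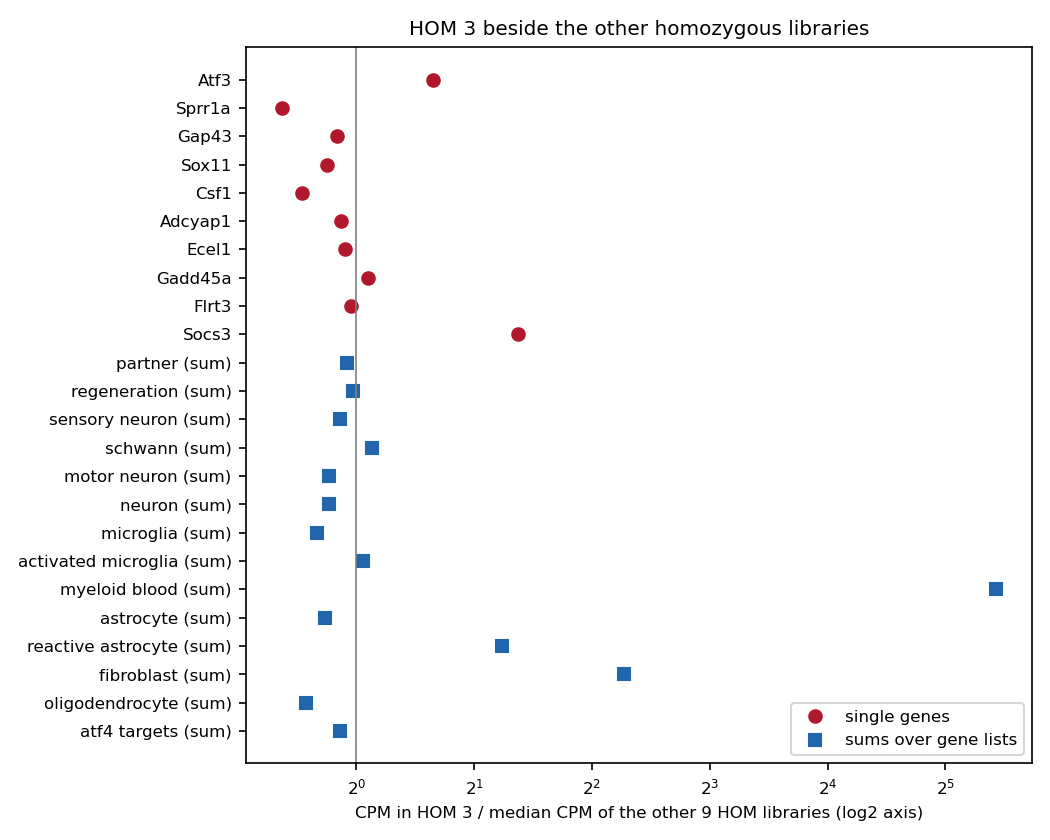
Ratio of the CPM in HOM 3 to the median of the other 9 HOM libraries (log2 axis) for the 10 genes (circles) and for summed marker lists (squares). The myeloid and fibroblast sums lie far to the right, Socs3 at 2.59 and Atf3 at 1.57 lie right of the line, and Csf1 at 0.728 lies left of it; the Schwann cell sum sits near the line because Mbp, which oligodendrocytes also make, holds most of it.

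The pathway around the 10 genes was read from 51 genes for their receptors, ligands, relatives and upstream signals, 49 of them tested. By edgeR 0 of 49 were called in HOM against WT, with 26 positive and 23 negative values, a median log2 fold change of 0.01 and 3 genes with an unadjusted p below 0.05 (5 without HOM 3), beside 5.91% of all genes. In HET against WT 0 of 49 were called, with 31 positive and 18 negative values and a median of 0.01. In HOM against HET 0 of 49 were called, with 23 positive and 26 negative values, a median of -0.01 and 4 genes with an unadjusted p below 0.05 (8 without HOM 3), beside 8.80% of all genes. Jun, the AP-1 factor that works with Atf3 in injured neurons, averaged 48.6 ± 3.90 CPM in HOM, 47.2 ± 4.37 CPM in HET and 47.0 ± 2.09 CPM in WT. The smallest p of these genes in HOM against WT were those of Vipr2, a receptor for PACAP and VIP, with a log2 fold change of -0.31 (SE 0.129, unadjusted p = 0.0249, adjusted p = 0.815), and Gadd45gip1, whose product binds GADD45 proteins, with 0.10 (unadjusted p = 0.0372, adjusted p = 0.815).

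Of 40 genes linked to axon regeneration, some of them also among the 51, 35 were tested and 0 were called by edgeR in any genotype comparison. In HOM against WT 17 values were positive and 18 negative with a median of -0.01, and 4 genes had an unadjusted p below 0.05 (2 without HOM 3), beside 5.91% of all genes. In HET against WT 22 were positive and 13 negative with a median of 0.03, and in HOM against HET 15 were positive and 20 negative with a median of -0.02. There 6 genes had an unadjusted p below 0.05, or 0 with prefix as covariate, beside 8.80% of all genes. Gal and Npy, neuropeptides that injured sensory neurons induce, had log2 fold changes of -0.04 (SE 0.12) and -0.16 (SE 0.0988) in HOM against WT. Rrad, a small GTPase gene, averaged 1.19 ± 0.312 CPM in HOM, 1.21 ± 0.368 CPM in HET and 0.847 ± 0.244 CPM in WT. For Rrad, HOM against WT gave a log2 fold change of 0.50 (SE 0.202, adjusted p = 0.815) and HET against WT 0.51 (SE 0.224, adjusted p = 1.0). Lmo7, a LIM domain gene, had the smallest p of the list, with 7.46 ± 0.701 CPM in HOM and 9.00 ± 1.15 CPM in WT and a log2 fold change of -0.27 (SE 0.072, adjusted p = 0.341).

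Motor neuron markers, whose cells send their axons to muscle, gave 0 called of 11 tested in HOM against WT, with 3 positive and 8 negative values and a median log2 fold change of -0.12. An unadjusted p below 0.05 was found for 4 of the 11, or 5 without HOM 3, beside 5.91% of all genes. In HOM against HET 0 of 11 were called, with 4 positive and 7 negative values and a median of -0.15, and 7 had an unadjusted p below 0.05, or 6 without HOM 3 and 5 with prefix as covariate, beside 8.80% of all genes. In HET against WT 0 were called and 0 had an unadjusted p below 0.05. Chat, the enzyme that makes acetylcholine, averaged 20.8 ± 2.99 CPM in HOM, 24.4 ± 1.65 CPM in HET and 24.1 ± 2.70 CPM in WT, with a log2 fold change of -0.22 in HOM against WT (SE 0.0867, adjusted p = 0.815, edgeR). Without HOM 3, 7 of the 11 values in HOM against WT were negative. Microglial markers, the cells that Csf1 acts on, gave 0 called of 12 in HOM against WT with 3 positive and 9 negative values. Without HOM 3 the split was 7 positive and 5 negative.

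ATF4 is the factor through which the integrated stress response switches on genes for amino acid supply. Of 24 genes listed as ATF4 targets, Atf4 included, 10 were called higher in HOM against WT and 0 lower, beside 0.0943% of all genes called. In HET against WT 0 were called, beside 0% of all genes. In HOM against HET 7 were called higher, beside 0.106% of all genes called. The median log2 fold change of the 24 genes in HOM against WT was 0.27, beside 0.01 over all genes. The list was chosen with its result in these libraries known, so the count is no independent evidence of its direction. Atf4 itself averaged 90.6 ± 5.36 CPM in HOM, 85.5 ± 3.86 CPM in HET and 77.3 ± 2.99 CPM in WT, with a log2 fold change of 0.23 in HOM against WT (SE 0.038, adjusted p = 0.00461). Stbd1 had 4.22 ± 1.06 CPM in HOM, 1.46 ± 0.151 CPM in HET and 1.25 ± 0.166 CPM in WT (log2 fold change 1.75 in HOM against WT, SE 0.148). Atf3, whose promoter stretch shown above holds a match to the ATF4 element, is known as a target of ATF4 in stressed cells. Its log2 fold change in HOM against WT was -0.01 (SE 0.172, interval -0.37 to 0.34, edgeR). This interval includes the median of 0.27 of the listed targets, so whether Atf3 departed from them cannot be decided. Yars, the mutated gene, had a log2 fold change of 0.10 in HOM against WT (SE 0.0332, adjusted p = 0.643, edgeR), so it did not pass.

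The levels of the 10 genes over the 22 libraries gave 45 pairs, whose Spearman rho ran from -0.40 to 0.70 with a median of 0.119, and 28 of the 45 were positive. Permutation tests adjusted over the 45 pairs left 2 pairs with an adjusted p below 0.05. Sox11 and Ecel1 had rho = 0.696 (adjusted permutation p = 0.0198) and r = 0.742 (adjusted permutation p = 0.00315), and r was 0.764 without the 2 libraries farthest from the Sox11 median. Within the prefixes rho was 0.429, 0.771 and 0.624 under 39992, 40411 and 40412, and without HOM 3 it was 0.701. Gadd45a and Socs3 had rho = 0.650 (adjusted permutation p = 0.0342) and r = 0.457 (adjusted permutation p = 0.155), so this pair passed by rank only. Its r was 0.433 without the 2 libraries farthest from the Gadd45a median, its rho was 0.486, 0.600 and 0.649 within the prefixes, and it was 0.642 without HOM 3. Within the genotypes its rho was 0.782 in HOM, 0.371 in HET and 0.0857 in WT. For Sox11 and Ecel1 these values were 0.685, 0.429 and 0.543. By Pearson's r, Gap43 and Adcyap1 also passed, with r = 0.771 (adjusted permutation p = 0.0018), but their rho was 0.546 (adjusted permutation p = 0.0695) and within the prefixes it was 0.657, -0.429 and 0.685. Sprr1a and Adcyap1 had r = 0.627 and Gap43 and Csf1 had r = 0.610, and for both pairs the adjusted p of rho was above 0.05 and the sign of rho was not the same under every prefix. For Sprr1a and Adcyap1, r was 0.363 without the 2 libraries farthest from the Sprr1a median. Atf3 had rho between -0.13 and 0.31 with each of the other 9 genes, none of which passed. Without HOM 3 its rho ran from -0.06 with Ecel1 to 0.50 with Csf1 (adjusted permutation p = 0.187 for Csf1), and again none passed.

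**Figure D4:**
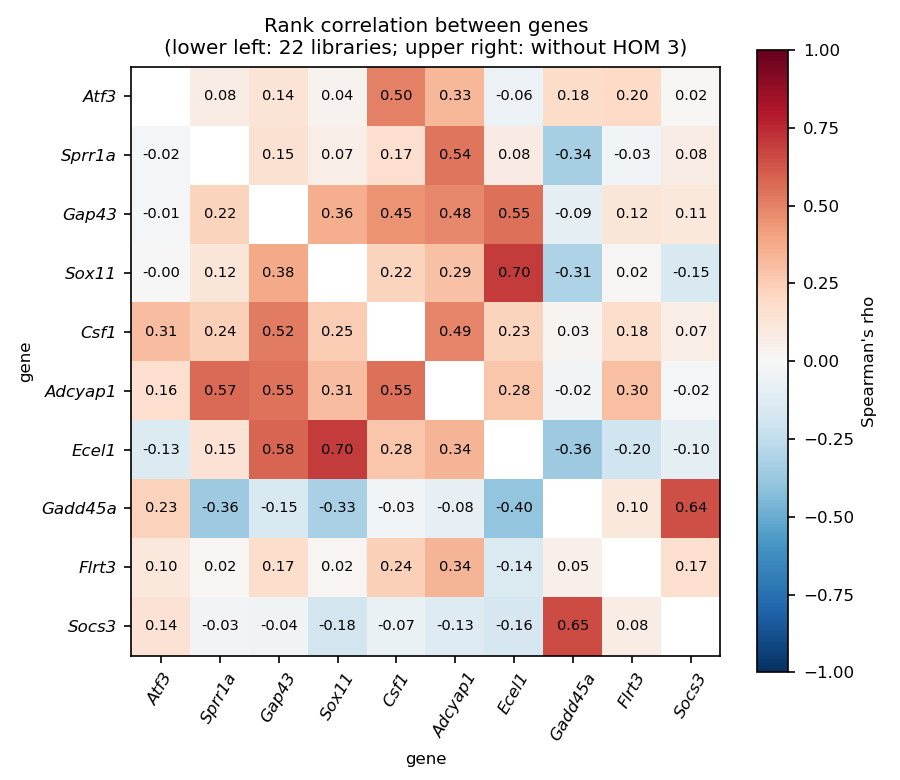
Spearman rho between the 10 genes over 22 libraries (lower left) and over 21 libraries without HOM 3 (upper right), on a colour scale from -1 to 1. Sox11 with Ecel1 and Gadd45a with Socs3 are the darkest cells on both sides of the diagonal, and the Atf3 column stays pale in the lower left. In the upper right Atf3 reaches 0.50 with Csf1.

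Among all other tested genes, the most similar profile by Spearman rho over the 22 libraries was that of Dock8 for Atf3 (rho = 0.722), Scg2 for Gap43 (0.832), Tent4a for Sox11 (0.761) and Bcorl1 for Csf1 (0.865). For Adcyap1 it was Fam124a (rho = 0.807), for Ecel1 Osbp (0.824), for Gadd45a Zfp346 (0.822), for Flrt3 2510009E07Rik (0.863) and for Socs3 Wt1 (0.808). Each is the highest value over all other tested genes, and the libraries share depth, title prefix and HOM 3, so these are descriptions with no test. Wt1 averaged 0.408 CPM in HOM, 0.287 CPM in HET and 0.282 CPM in WT, and Scg2, a neuronal granule protein, averaged 292 CPM in HOM, 307 CPM in HET and 287 CPM in WT.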

How the data were processed

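Whole spinal cord RNA was sequenced as polyA-selected libraries in 22 samples, grouped by the genotype in the labels; replicate numbers follow deposition order and pair nothing. Per the file headers, the authors deposited RSEM gene tables, 1 row per Ensembl ID, that hold the expected counts, the TPM and the FPKM. The deposited TPM, scaled by RSEM to transcript length, served for levels between genes and for an alternative test, and the deposited FPKM were not used. Per the submitters' processing notes, Bowtie2 2.2.0 and RSEM 1.2.12 were used; for their roles, the genome build, the annotation and the strand setting: not given in the sources used here. Between 14.41% and 16.23% of the expected counts per library were not whole, because RSEM shares reads among genes.

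Expected counts were rounded, filtered with filterByExpr by genotype and fitted over all 22 libraries with edgeR 4.0.16 (TMM, robust quasi-likelihood) in R 4.3.3, with Benjamini-Hochberg adjustment over 16974 genes and a threshold of 0.05. Standard errors come from the F statistic and 95% intervals from its degrees of freedom. CPM values are counts over the summed counts of the tested genes after TMM adjustment. Correlations used log2(CPM + 0.5) and 100000 permutations. Intervals on summed counts cover counting error only. Alternatives were other size factors, no filter, DESeq2 1.42.0, limma 3.58.1 on log2(TPM + 1) and log2(TPM + 0.1), only the groups compared, the title prefix as a covariate and each library left out.

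The 10 genes and the 14 other lists were chosen with earlier results of these data known. The text names all 10 genes, Yars, Csf1r, Adcyap1r1, Stat3, Jun, Gal and Npy, the most alike gene of each tested member, and genes drawn from those called or with the 2 smallest p in HOM against WT in each list. Marker genes named for HOM 3 and for sensory neurons were picked after their values were seen. Drgx and Slc18a3, 2 genes of these lists, were not matched. Symbols and GRCm38 positions came from tables matched by Ensembl ID, and promoters from RefSeq (GRCm38.p6). Protein sequences were not used here.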

Additional observations from a re-analysis of the deposited data

Results flagged for a closer look

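In the levels of the 10 genes by genotype, 30 groups were examined for a sample far from the others, and 4 had one; chance alone gives about 1 in 20. Socs3 had 4.16 CPM in HOM 3, where the next highest HOM library had 2.06 CPM. Csf1 had 40.5 CPM in HOM 3, where the next lowest HOM library had 49.7 CPM. Both values are in the library whose Schwann cell, myeloid and fibroblast markers stood apart, and the part of those transcripts in them was not tested. Gap43 had 97.9 CPM in WT 5, where the next highest WT library had 84.2 CPM; WT 5 was also the highest WT library for Adcyap1, Flrt3, Sprr1a and Socs3. Socs3 had 1.17 CPM in HET 3, where the next lowest HET library had 1.67 CPM, and this was the lowest Socs3 value of the 22 libraries in CPM. In TPM HET 3 had 1.24 TPM, beside 1.29 TPM in HET 4, and WT 2 was lower with 0.97 TPM.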

How the results depend on the processing

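Under every alternative tried, including each library left out, 0 of the genes were called in all 4 fits, and 2 pairs of genes passed the rank correlation test with and without HOM 3. The smallest adjusted p reached under any alternative was 0.544 in HOM against WT (Adcyap1, without WT 4), 0.793 in HET against WT (Csf1, limma on log2(TPM + 0.1)), 0.341 in HOM against HET (Csf1, without HOM 10) and 0.449 for the allele number (Adcyap1, without WT 1). In the 3 genotype comparisons signs changed in 25 cases, none of which passed the threshold. The largest of the values turned round was that of Adcyap1 in HOM against HET, -0.15 in the fit reported. This count covers neither the allele number nor single libraries left out other than HOM 3. For the allele number, Csf1 was -0.028, Atf3 -0.011 and Gap43 -0.0035 in the fit reported. With the title prefix they were 0.019, 0.024 and 0.022, and without HOM 3 Gap43 was 0.0066. In HOM against WT, Atf3 was 0.014 on log2(TPM + 1) and 0.051 with the title prefix; Gap43 was -0.00086 with RLE size factors, -0.0019 without the low-count filter and -0.00058 in DESeq2; Csf1 was 0.0076 on both TPM scales, 0.034 with the title prefix and 0.0038 without HOM 3. In HET against WT, Atf3 was -0.0074 on log2(TPM + 1), -0.022 on log2(TPM + 0.1) and -0.023 with the title prefix. On log2(TPM + 1) and log2(TPM + 0.1) in that comparison, Adcyap1 was 0.042 and 0.044, Gadd45a 0.033 and 0.034, and Flrt3 0.042 and 0.047, and Gadd45a was 0.024 with the title prefix. In HOM against HET, Atf3 was 0.021 on log2(TPM + 1), 0.012 on log2(TPM + 0.1) and 0.074 with the title prefix, with which Gap43 was 0.0046, Adcyap1 0.014 and Gadd45a -0.00094. The cause was not tested. Over all genes, DESeq2 called 28 in HOM against WT, 70 in HOM against HET and 32 for the allele number, where edgeR called 16, 18 and 17. In HOM against HET, limma called 11 on each TPM scale, the title prefix as a covariate gave 10, and leaving out 1 library gave 39 calls for HOM 10, 11 for HOM 1, 11 for HOM 4 and 10 for HET 3. Depth limits Sprr1a, with at most 15 counts per library, most. No paired analysis was possible because the replicate numbers follow deposition order and pair nothing.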
